A study of Mus musculus with 2 samples.

Results

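The genes described here are those of the autophagy machinery and its cargo receptors. They were chosen by gene symbol alone (the ATG genes, the ULK kinases, the Beclin and PI 3-kinase complex, the WIPI proteins, the LC3 and GABARAP genes, and named receptors and adaptors), and no measured value enters that rule, although the set was proposed with earlier results of these data known. Atg4c and Atg4d fall outside the rule and are counted with the regulators further on. The rule found 41 genes on the array, read by 97 probe sets, of 18193 genes named by a single symbol; all 41 had a value after the filter on low signals, as did 10678 genes in all. Optn, which the rule also names, was not analysed here.

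The study compared Neuro2a cells, a mouse neuroblastoma line, transfected with an siRNA against Tmem132a (also called mKIAA1583) with Neuro2a cells given a non-specific control siRNA. Each group was a single Affymetrix Mouse Genome 430 2.0 array of total RNA, and transfection time and siRNA dose are not given in the sources used here. Without replicates there is no error between cultures and no test, and every difference below describes these 2 arrays. Values are MAS5 signals, a brightness per probe set on a linear scale. Differences are log2 ratios, Tmem132a siRNA over control siRNA, averaged over the probe sets of a gene past the filter on low signals.

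Autophagy encloses cytoplasm in a double membrane, the autophagosome, and delivers it to the lysosome for breakdown. The ULK kinase complex starts the process, a PI 3-kinase complex marks the forming membrane with the lipid PI3P, WIPI proteins read that mark, and a pair of ubiquitin-like conjugation systems attach LC3 and GABARAP proteins to the membrane, where cargo receptors bind them. Neurons rely on this pathway to clear aggregated proteins and old organelles, and part of its machinery is under transcriptional control by stress-responsive factors such as ATF4, CHOP, NRF2 and TFEB.

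Tmem132a itself had a signal of 435.6 with its own siRNA, against 1825.5 with the control siRNA, or 23.9% of the control level. One description field of that sample names the control siRNA, but its title and treatment name Tmem132a, and the groups follow the titles. Of 13 neuroblastoma and neuron markers on the array, 11 passed the filter; Nefl and Nefm were among those read, and did not pass. Those 11 had a median log2 ratio of -0.39 (from -1.19 to 0.03), lower on the Tmem132a siRNA array. Of 8 fibroblast markers 0 passed the filter, and of 6 markers each of glia, of immune cells, and of epithelium and endothelium, 1 each did. The summed signal of each list, by the brightest probe set of each marker, was 416.6 with the Tmem132a siRNA and 281.2 with the control siRNA for glia, and 343.8 and 255.1 on those arrays for immune cells. It was 314.4 and 182.4 for epithelium and endothelium, with Epcam at a log2 ratio of 1.04, and 280.9 and 335.2 for fibroblasts. The part of these marker levels in the results below was not tested.

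Most autophagy genes were somewhat higher with the Tmem132a siRNA. Of the 41 genes, 31 (75.6%) had a ratio above 0, where 51.8% of all genes did, and their median log2 ratio was 0.31, where that of all genes was 0.02. Of these genes 8 (19.5%) were higher by 1.5-fold or more, beside 8.82% of all genes, and 2 were lower by that size, beside 9.11% of all genes. With each gene read by its brightest probe set alone, 31 were still above 0, but 5 (12.2%) were 1.5-fold or more higher, beside 9.29% of all genes, and the median was 0.19. With a filter at the 75th percentile of signal, 4 of 26 were higher by that size (15.4%), beside 5.71% of all genes. At the 2-fold size used for the series, 2 genes were higher, Wipi2 and Becn1, beside 2.1% of all genes, and 0 were lower, beside 2.44% of all genes. The shift of the group was made of many small differences, and 18 of the 41 genes (43.9%), 13 higher and 5 lower, beside 34% of all genes, exceeded the SD of 0.39 by which probe sets of 1 gene scatter around their mean ratio, over all genes. Pooled over the autophagy genes alone, that SD was 0.61. Becn1, whose 4 probe sets had an SD of 1.77, gave most of that scatter, so 0.61 does not describe the other genes. Of the 41 genes, 9 (22%) exceeded 0.61, beside 16.4% of all genes. As the RNA is from whole cultures, more RNA per cell cannot be told apart from more cells with that RNA.

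**Figure D1:**
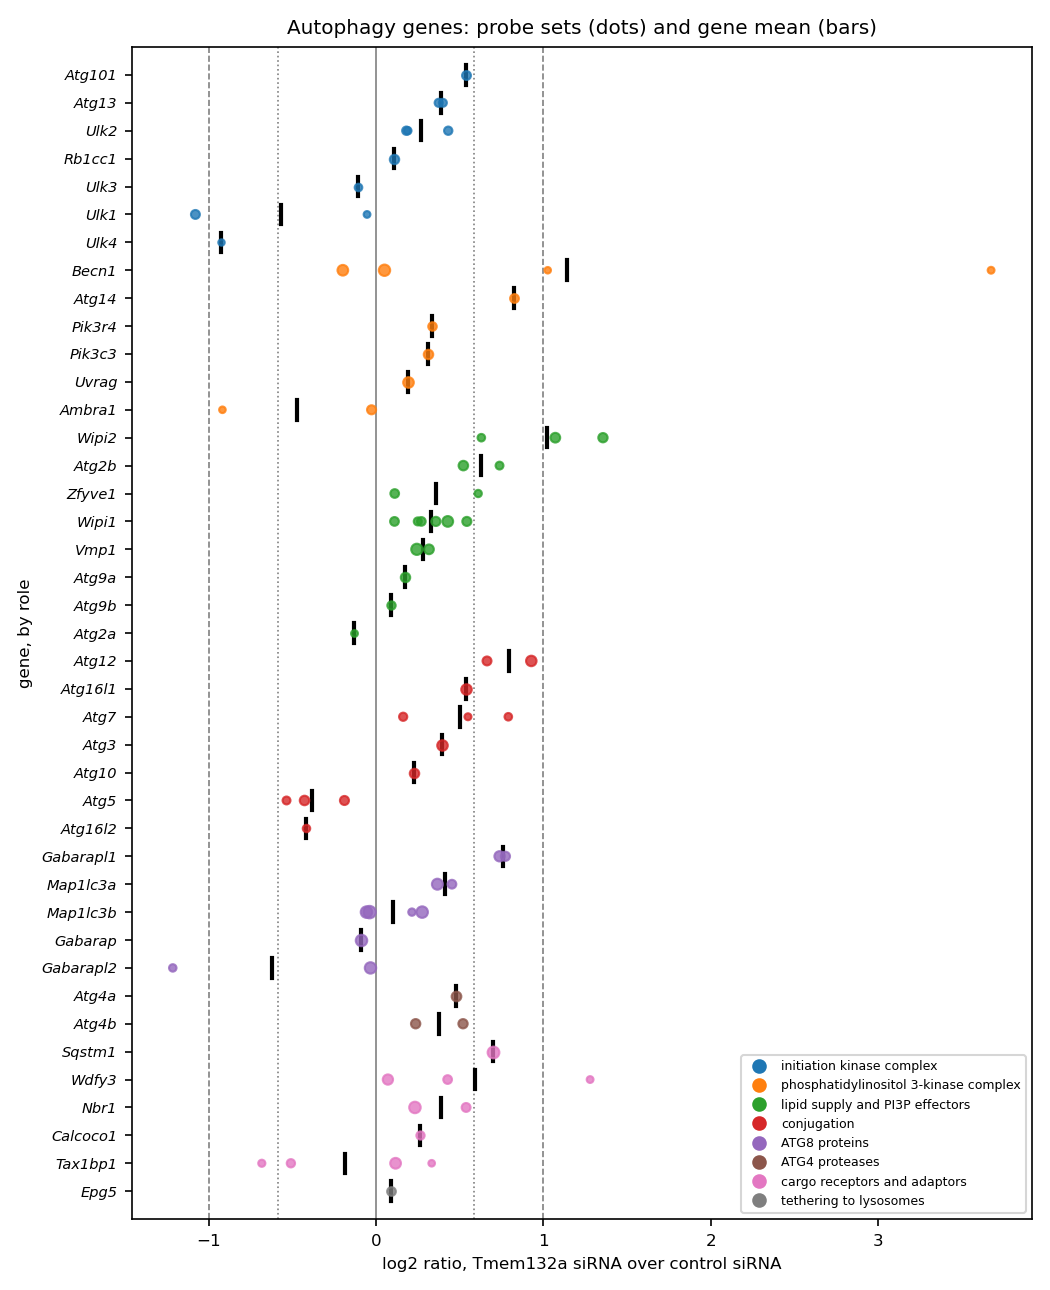
Log2 ratio, Tmem132a siRNA over control siRNA (horizontal axis), of each of the 41 autophagy genes, grouped and coloured by role. Each dot is a probe set past the signal filter, with larger dots for brighter ones, and the black bar is the gene mean; dotted and dashed lines mark 1.5-fold and 2-fold. Of the bars, 31 lie right of 0, and the Becn1 bar at 1.14 lies far from its brightest probe sets at 0.05 and -0.20.

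The upstream sequences of 3 of the genes that were higher, one each for a PI3P reader, a GABARAP protein and a cargo receptor, show what kind of promoter these genes have. They run 5′ to 3′ over the 250 bases before the RefSeq start in GRCm38.p6, for Wipi2 chr5:142629334-142629583 on the + strand, for Gabarapl1 chr6:129532942-129533191 on the + strand and for Sqstm1 chr11:50210821-50211070 on the - strand. Capitals mark GC boxes, the letters GGGCGG on either strand, to which factors of the SP1 family are known to bind.
Wipi2: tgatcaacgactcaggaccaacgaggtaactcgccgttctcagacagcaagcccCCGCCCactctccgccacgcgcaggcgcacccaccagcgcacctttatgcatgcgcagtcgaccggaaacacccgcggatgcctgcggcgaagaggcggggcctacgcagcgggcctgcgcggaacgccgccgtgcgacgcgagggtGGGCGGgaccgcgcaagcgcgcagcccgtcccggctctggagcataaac
Gabarapl1: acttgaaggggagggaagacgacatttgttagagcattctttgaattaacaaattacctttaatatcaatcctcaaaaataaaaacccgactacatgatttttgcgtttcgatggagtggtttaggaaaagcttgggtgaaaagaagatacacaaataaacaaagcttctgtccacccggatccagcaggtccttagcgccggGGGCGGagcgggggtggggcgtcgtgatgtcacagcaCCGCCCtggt
Sqstm1: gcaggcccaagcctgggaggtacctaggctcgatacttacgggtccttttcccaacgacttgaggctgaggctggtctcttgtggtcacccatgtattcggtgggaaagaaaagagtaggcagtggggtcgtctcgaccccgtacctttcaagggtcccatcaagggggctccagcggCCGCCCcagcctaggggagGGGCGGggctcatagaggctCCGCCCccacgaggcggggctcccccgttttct

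Promoter sequences were found for 33 of the 41 genes. Counting both strands over 250 bases before to 50 after the start, 22 of the 33 (66.7%) held a GC box, as did 38.2% of all 27025 genes in the RefSeq table. The E-box CACGTG, the core of the element bound by TFEB and related factors, was found in 4 of 33 (12.1%), beside 8.09% of all genes. An antioxidant response element, TGACNNNGC, was in 6 of 33 (18.2%), beside 14% of all genes. The ATF4-C/EBP element TGATGNAA was in 0 of 33, and 4.51% of all genes held it. A CCAAT box, the letters CCAAT, was in 10 of 33 (30.3%), beside 41.1% of all genes. The 33 genes all passed the signal filter, whereas the genes of the RefSeq table were not chosen by expression. A match is only a run of letters in this window.

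The E-boxes lie in Atg14, Atg3, Atg5 and Atg7, shown with 10 bases on each side and the E-box in capitals; Atg14 (chr14:47568420-47568445, - strand), Atg3 (chr16:45158725-45158750 and chr16:45158748-45158773, + strand), Atg5 (chr10:44268315-44268340, + strand) and Atg7 (chr6:114670954-114670979, + strand) are given in GRCm38.p6.
Atg14: aacaaaatccCACGTGactggccctg
Atg3, first: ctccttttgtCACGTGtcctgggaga
Atg3, second: agagtcgagtCACGTGaggccttagg
Atg5: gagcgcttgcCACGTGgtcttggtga
Atg7: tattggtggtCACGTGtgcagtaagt

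Of these 4 genes, Atg14, Atg7 and Atg3 had log2 ratios of 0.83, 0.50 and 0.39, and Atg5 had one of -0.38. Genes with an E-box in this window thus lay on both sides of 0.

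The ULK kinases and their partners were mixed, with 4 of 7 genes above 0 and a median of 0.11. Without Ulk3 and Ulk4, which are not part of the ULK1 complex, 4 of 5 were above 0, with a median of 0.27. Ulk1, the kinase that starts autophagy when nutrients are short, had a log2 ratio of -0.57. Its probe set 1448370_at read 296.2 with the Tmem132a siRNA and 625.5 with the control siRNA, a log2 ratio of -1.08, while its other probe set had 101.8 and 105.6 (-0.05). The 2 probe sets of Ulk1 therefore agree on no size, and by its brighter probe set alone it would be 2-fold lower. Ulk4, a relative of unclear role in autophagy, read 58.2 with the Tmem132a siRNA and 110.6 with the control siRNA on 1436628_at (-0.93). Ulk4 was close to the filter limit of 77.2, and its second probe set, just under that limit, went the other way with 100.5 and 53.2 (0.92).

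The remaining initiation genes lay nearer to 0 or above it. Ulk2, which can stand in for Ulk1, lay at 0.27, with 3 probe sets past the filter between 0.18 and 0.43 and a dimmer one at -0.49. Atg101 and Atg13, the partners that hold the complex together, had ratios of 0.54 and 0.39; Atg101 read 536.9 with the Tmem132a siRNA and 370.2 with the control siRNA. Both probe sets of Atg13 gave nearly the same value (0.38 and 0.40). Rb1cc1, the FIP200 scaffold, had a ratio of 0.11 and Ulk3 one of -0.10. Ulk1 thus differed in direction from Ulk2, Atg13 and Atg101 on these arrays.

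In the PI 3-kinase complex 5 of 6 genes were above 0, with a median of 0.32. Atg14, the subunit that directs the kinase to autophagosome formation, had the largest ratio here after Becn1, with a signal of 540.4 with the Tmem132a siRNA and 304.6 with the control siRNA on its only probe set (0.83). The catalytic subunit Pik3c3 (VPS34) read 789.8 and 636.5 on those arrays (0.31). Its membrane anchor Pik3r4 had a ratio of 0.34, and Uvrag, the subunit of the endosomal form of the complex, one of 0.19. Ambra1, a scaffold that links Beclin to the ULK complex, lay at -0.47, but its brighter probe set had 513.5 with the Tmem132a siRNA and 522.8 with the control siRNA (-0.03) and only its dimmer one, with 64.4 and 121.6, was lower (-0.92).

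Becn1, which encodes Beclin, had the largest mean ratio of the 41 genes (1.14), and that value rests on dim probe sets. Its bright probe sets read 4172.4 and 1976.2 with the Tmem132a siRNA, against 4026.5 and 2266.1 with the control siRNA, which are ratios of 0.05 and -0.20. The probe sets 1435219_x_at and 1437006_x_at read 199.4 and 119.4 with the Tmem132a siRNA, against 15.6 and 58.6 with the control siRNA (3.68 and 1.03). The x in their names marks probes that can bind other transcripts. Leaving out probe sets of the x, s and a kinds left Becn1 only the probe set at -0.20, without its brightest one. With a filter at the 75th percentile of signal its ratio was -0.07. A 2-fold difference of Becn1 is thus not carried by its brightest readings.

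Among genes of lipid supply and PI3P binding, 7 of 8 were above 0, with a median of 0.30. Wipi2, the PI3P reader that recruits ATG16L1 to the forming membrane, had the highest mean ratio after Becn1, and on all of its probe sets. Its 3 probe sets read 1205.9, 910.5 and 208 with the Tmem132a siRNA, against 573.5, 355.5 and 134.4 with the control siRNA, which gives ratios of 1.07, 1.36 and 0.63 and a mean of 1.02 ± 0.37 (SD over 3 probe sets). All were higher, and 208 of 10678 genes (1.95%) had a ratio as high or higher. When 79.2 was added to every signal as a pseudocount, its ratio was 0.86, under 2-fold. Its relative Wipi1 was measured by 6 probe sets, all above 0, with a mean of 0.33 ± 0.15 (SD over 6 probe sets). The difference between Wipi2 and Wipi1 was 0.69, larger than the probe-set scatter of either gene.

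ATG2 proteins move lipid from the endoplasmic reticulum into the growing membrane. Atg2b read 909.7 and 261.5 with the Tmem132a siRNA, against 633.2 and 156.7 with the control siRNA (mean ratio 0.63). Atg2a read 101.7 with the Tmem132a siRNA and 111.5 with the control siRNA (-0.13), so the relatives differed by 0.76. The lipid scramblases of the pathway differed little. Vmp1 had ratios of 0.24 and 0.32 on its 2 probe sets, Atg9a one of 0.18, and Atg9b one of 0.09. Zfyve1 (DFCP1), a PI3P-binding marker of the site where autophagosomes form, lay at 0.36, with probe sets at 0.11 and 0.61.

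In the conjugation systems 5 of 7 genes were above 0, with a median of 0.39. Atg12, the ubiquitin-like protein that is joined to ATG5, read 2318.7 and 567.7 with the Tmem132a siRNA, against 1218.2 and 358.3 with the control siRNA (0.93 and 0.66, mean 0.80). Its acceptor Atg5 was lower on all 3 probe sets, which read 640, 481.9 and 175.9 with the Tmem132a siRNA, against 860.1, 548.9 and 254.7 with the control siRNA (mean -0.38 ± 0.18, SD over 3 probe sets). The 2 partners of this conjugate thus lay on opposite sides of 0, each with all its measured probe sets on 1 side. Atg16l1, which binds the conjugate and sets where LC3 is attached, read 2165.3 and 1488.1 on those arrays (0.54). Its relative Atg16l2 read 135.7 with the Tmem132a siRNA and 181 with the control siRNA (-0.42).

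The enzymes of conjugation were all above 0. Atg7, the E1 enzyme shared by both systems, had a mean of 0.50 ± 0.32 (SD over 3 probe sets), although its brightest probe set gave only 0.16. Atg3, the E2 enzyme for LC3, read 2110.7 with the Tmem132a siRNA and 1605.9 with the control siRNA (0.39). Atg10, the E2 enzyme for ATG12, lay at 0.23. The proteases Atg4a and Atg4b, which trim LC3 and GABARAP proteins before attachment and release them later, had ratios of 0.48 and 0.38.

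**Figure D2:**
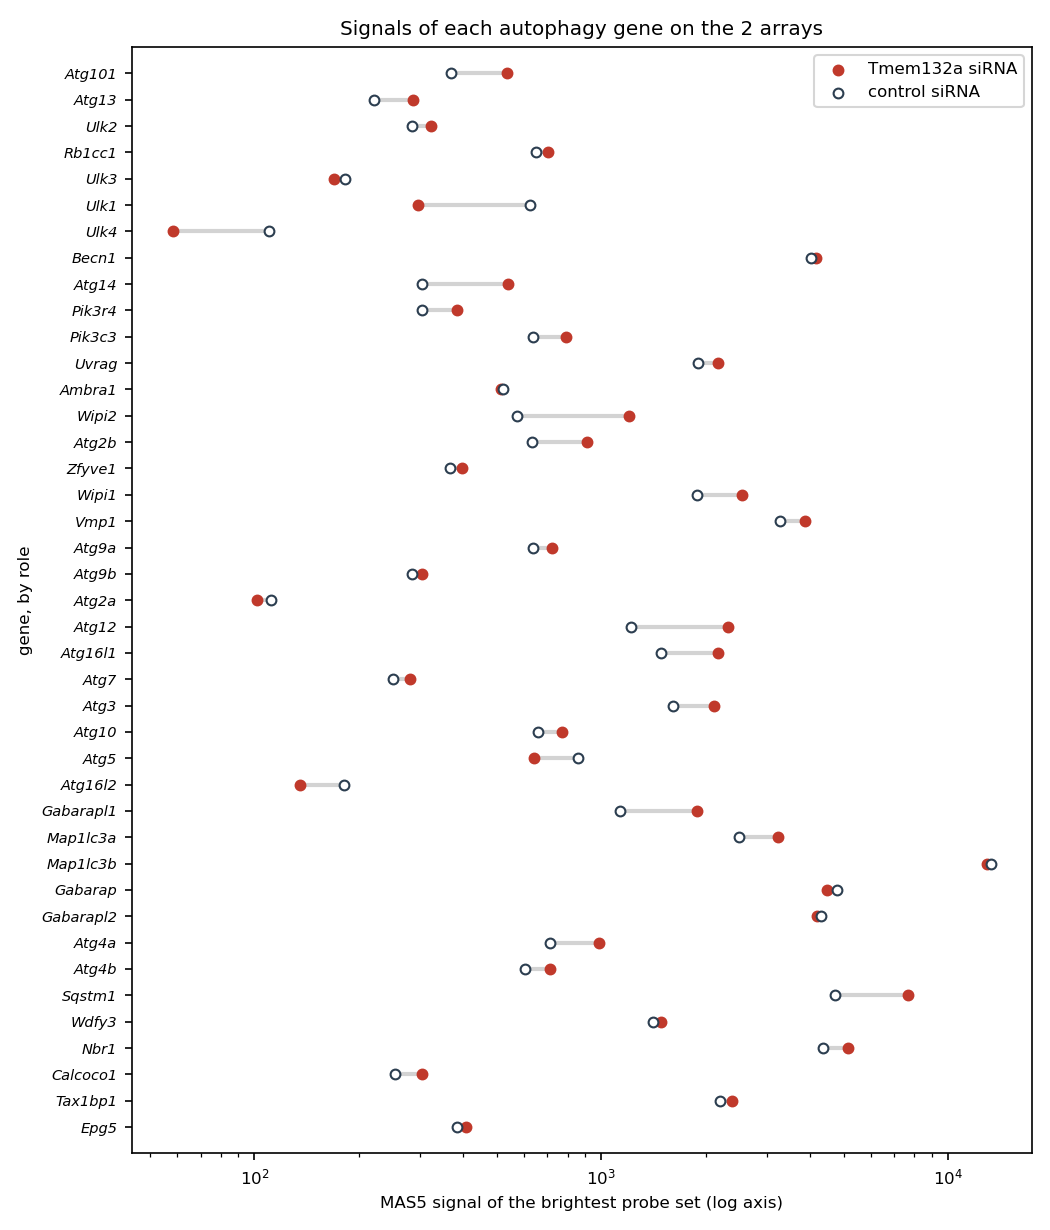
MAS5 signal (horizontal log axis) of the brightest probe set of each of the 41 autophagy genes, filled for the Tmem132a siRNA array and open for the control siRNA array. Wide gaps to the right are seen for Wipi2 (1205.9 and 573.5), Atg12 (2318.7 and 1218.2) and Atg14 (540.4 and 304.6). Gabarapl1 (1891 and 1133) and Sqstm1 (7659.5 and 4716.6) follow. Wide gaps to the left are seen for Ulk1 (296.2 and 625.5) and the dim Ulk4 (58.2 and 110.6).

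The LC3 and GABARAP proteins, which decorate the autophagosome and bind its cargo receptors, differed from each other. Gabarapl1 read 1891 and 704.4 with the Tmem132a siRNA, against 1133 and 411.9 with the control siRNA, and its probe sets agreed closely (0.74 and 0.77). Gabarap read 4488.4 with the Tmem132a siRNA and 4782.6 with the control siRNA (-0.09). Gabarapl2 was 1.5-fold lower as a mean (-0.62), but its bright probe set had 4203.6 and 4298.9 (-0.03) and only its dim one, with 97.4 and 225.9, was lower (-1.21). By their brightest probe sets Gabarapl1 lay 0.83 above Gabarap and 0.77 above Gabarapl2.

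Map1lc3a, one of the LC3 genes, read 3229.7 and 474.5 with the Tmem132a siRNA, against 2503.2 and 346.3 with the control siRNA (0.37 and 0.45). Map1lc3b, whose protein is the usual marker of autophagosomes, had a mean of 0.10 ± 0.17 (SD over 4 probe sets). Its probe sets read 12966.4, 4695.3, 5228.7 and 160.8 with the Tmem132a siRNA, against 13308.4, 4881.8, 4316.5 and 138.5 with the control siRNA, and they lay on both sides of 0. In this family of 5 genes, Gabarapl1 was more than 1.5-fold higher and Gabarapl2, by its mean, more than 1.5-fold lower.

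Among cargo receptors and adaptors, 4 of 5 genes were above 0, with a median of 0.39. Sqstm1, which encodes p62, the receptor for ubiquitin-tagged cargo and a known target of NRF2, read 7659.5 with the Tmem132a siRNA and 4716.6 with the control siRNA (0.70), and 626 genes (5.86%) had a ratio as high or higher. That value comes from 1450957_a_at; a dim second probe set read 65.1 and 41.5 (0.65). Nbr1, a receptor of similar build, read 5136.5 and 530.5 with the Tmem132a siRNA, against 4369.3 and 365.1 with the control siRNA (0.23 and 0.54). Both receptors were higher on each of their probe sets.

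Wdfy3 (ALFY), a large adaptor for protein aggregates, had a mean of 0.59 with smaller ratios on its brighter probe sets, which read 1486.5, 450.1 and 152.5 with the Tmem132a siRNA, against 1414.3, 334.4 and 62.8 with the control siRNA (0.07, 0.43 and 1.28). It was just inside the 1.5-fold size (0.58), and by its brightest probe set it was not. Calcoco1, a receptor for endoplasmic reticulum and Golgi membranes, lay at 0.26. Tax1bp1, a receptor of ubiquitinated cargo, had 4 probe sets from -0.68 to 0.33, with the brightest at 0.12 and a mean of -0.18. Epg5, which tethers autophagosomes to lysosomes, read 408.7 with the Tmem132a siRNA and 383.2 with the control siRNA (0.09).

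**Figure D3:**
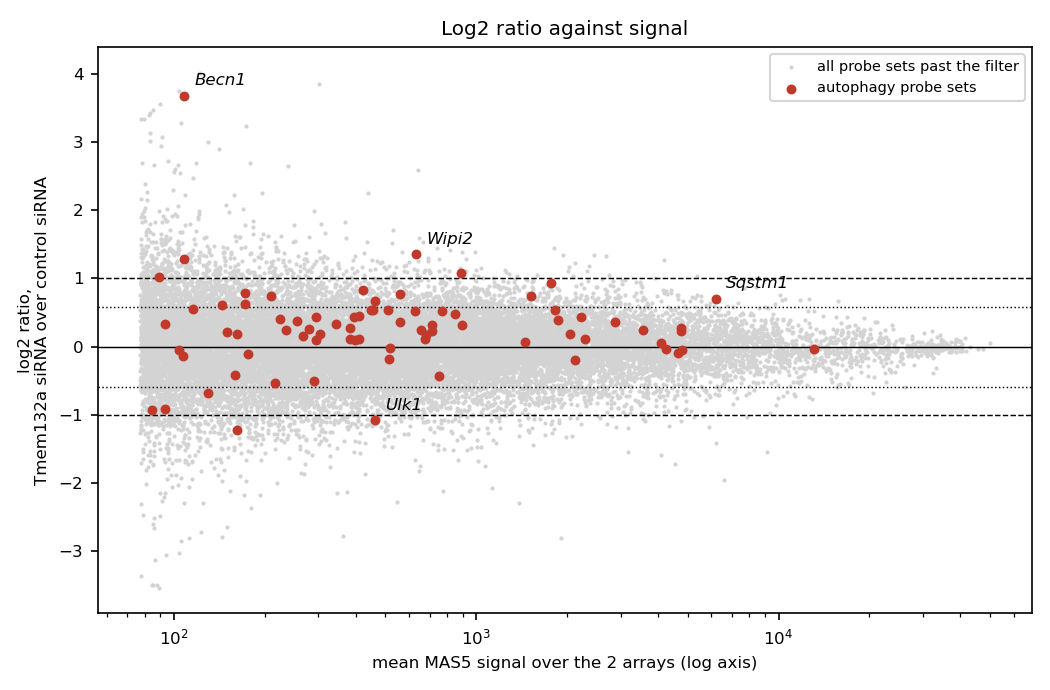
Log2 ratio, Tmem132a siRNA over control siRNA (vertical axis), against mean signal over both arrays (horizontal log axis), for the 77 autophagy probe sets past the filter in red over all 22519 probe sets past it in grey. The scatter of all probe sets widens at low signal, where the Becn1 probe set at 3.68 lies, while Sqstm1 at 0.70 and the labelled probe sets of Wipi2 (1.36) and Ulk1 (-1.08) lie at higher signals.

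The direction of the group was seen at higher signals rather than lower ones, in ranges set after the data were seen. Of 16 autophagy genes with a brightest probe set at or above 1000, 13 (81.2%) were above 0, beside 51.8% of all genes in that range. At least 1.5-fold higher were 5 (31.2%), beside 4.57% of all genes there. Among 17 between 300 and 1000, 14 (82.4%) were above 0, beside 52.8% of all genes, and 3 (17.6%) at least 1.5-fold higher, beside 8.08%. Of the 8 dimmer ones 4 (50%) were above 0, beside 50.5% of all genes, and their median was -0.01. At least 1.5-fold higher were 0 of them, beside 16.8% of all genes. The contrast with low signals rests on these 8 genes only. Probe sets of 1 gene also tended to share a direction: in 18 of 21 autophagy genes with several probe sets past the filter all lay on 1 side of 0 (85.7%), as in 55.3% of 5072 such genes in all. The probe sets of a gene come from the same RNA, so this agreement measures the array and not the culture. The widest scatter was in Becn1.

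A total of 5 genes kept a difference of at least 1.5-fold under every alternative processing that could measure them. These were Wipi2 and Gabarapl1 (10 of 10 alternatives each) and Atg12, Atg14 and Sqstm1 (9 of 9 each). Of the other 3 genes at that size, Atg2b kept it in 6 of 10, Becn1 in 6 of 10 and Wdfy3 in 4 of 10. Gabarapl2 kept its lower value at that size in 7 of 10 and Ulk4 in 6 of 9. Some of these counts were fixed in advance. Atg14 and Sqstm1 had 1 probe set each past the filter. Reading the brightest probe set therefore could not change their ratios. Removing the floor could change none of the 5 genes, as no signal of their probe sets past the filter was under 14.5. Leaving out the rescaling could hardly change any gene, as the trimmed means were 497.4 on each array. Having no filter could not change Wipi2, Gabarapl1 or Atg14, whose probe sets all passed it. The 75th percentile filter left Atg14 out, and the setting without x, s and a kinds left out Atg12 and Sqstm1. Those settings did not test these genes.

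**Figure D4:**
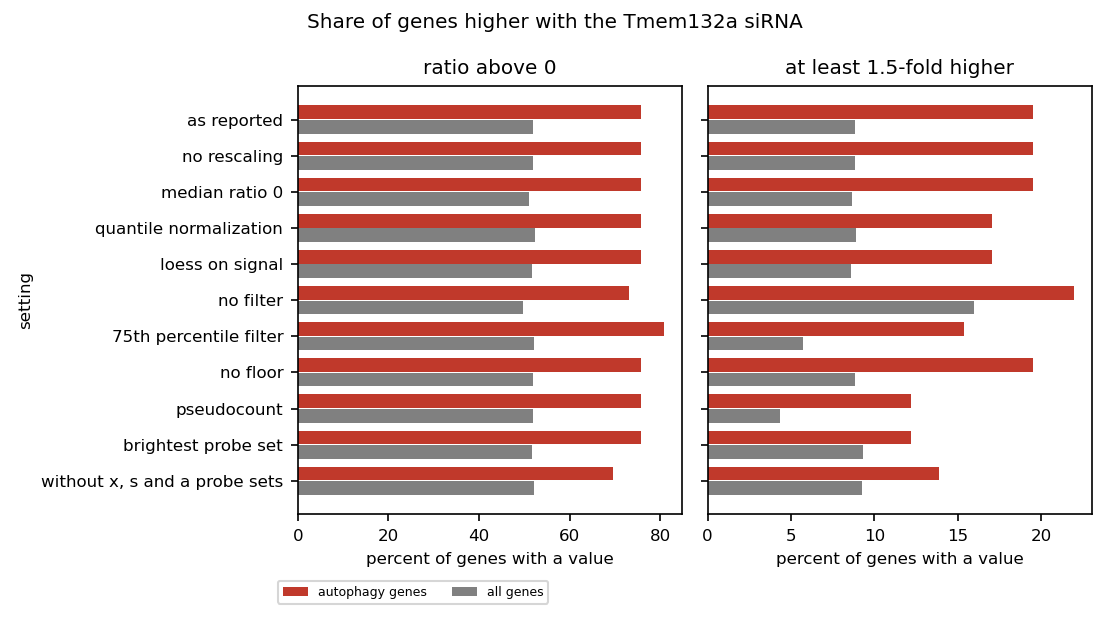
Share of genes with a value (horizontal axes, percent) that had a ratio above 0 (left) or were at least 1.5-fold higher with the Tmem132a siRNA (right), for autophagy genes in red and all genes in grey, under each processing setting (rows). The red bars lie between 69.4% and 80.8% on the left, and on the right between 12.2% and 22%, in each row above the grey bar.

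A set of 12 of the genes has been reported in mouse fibroblasts to need ATF4 or CHOP when amino acids run short. Of these 12, 9 were above 0, with a median of 0.39. Those above were Sqstm1, Nbr1, Atg3, Atg7, Atg10, Atg12, Atg16l1, Map1lc3b and Becn1, and those below were Gabarapl2, Atg5 and Gabarap, at -0.62, -0.38 and -0.09. By comparison, of the other 29 autophagy genes, 22 were above 0, with a median of 0.28. Both subsets leaned the same way. Higher by 1.5-fold or more, beside 8.82% of all genes, were 3 of the 12 (Atg12, Sqstm1 and Becn1, the last by dim probe sets) and 5 of the 29.

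Genes that control the pathway were measured beside it. Of 11 genes listed under transcriptional control with a value, 10 were above 0 (90.9%, beside 51.8% of all genes), with a median of 0.39. The list holds transcription factors together with folliculin and its partners Fnip1 and Fnip2, which are not such factors. At least 1.5-fold higher were 4 (36.4%, beside 8.82% of all genes), namely Mitf, Ddit3, Fnip1 and Fnip2. Ddit3, which encodes CHOP, read 3105.6 with the Tmem132a siRNA and 1589.6 with the control siRNA on its brightest probe set, and had a mean ratio of 1.01. Fnip1, a partner of folliculin in nutrient sensing at the lysosome, read 2901.9 and 1541.9 on those arrays, with a mean of 0.95 and probe sets from 0.85 to 1.08. Genes of nutrient and energy control had 12 of 26 above 0 and a median of -0.05. Of these, 0 were higher by 1.5-fold or more and 3 lower by that size (11.5%), near the 9.11% of all genes. Among them Prkag2, a regulatory subunit of AMP-activated kinase, had a ratio of -0.76, and Mlst8, a subunit of the mTOR complexes, one of -0.74.

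A mixed list of Beclin and PI3P regulators, other membrane and trafficking factors and the proteases Atg4c (0.47) and Atg4d (0.04) had 12 of 18 genes above 0 and a median of 0.11. Mtmr14, a phosphatase that removes PI3P, had a ratio of 0.76, and Bcl2, whose protein binds and restrains Beclin, one of -0.78 over probe sets at -0.43 and -1.13. Its relative Bcl2l1, which also binds Beclin, went the other way, at 0.74 with probe sets at 0.72 and 0.75. In the machinery that fuses autophagosomes with lysosomes 10 of 15 were above 0, with a median of 0.06, while Vps39 and Vps16, subunits of the HOPS tether, had ratios of -0.95 and -0.87. The other 4 HOPS subunits lay above 0 by their means, with Vps33a at 0.36, Vps41 at 0.32, Vps18 at 0.19 and Vps11 at 0.04. The 3 probe sets of Vps18 ran from -0.86 to 0.97, and by its brightest probe set Vps11 lay at -0.04. Receptors for mitochondria, endoplasmic reticulum and other organelles had 8 of 15 above 0 and a median of 0.06, with Fkbp8 at -0.77 and Bnip3 at -0.72. With the exception of the list of transcriptional control, each of these lists had a median nearer to that of all genes than the autophagy genes had.

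**Figure D5:**
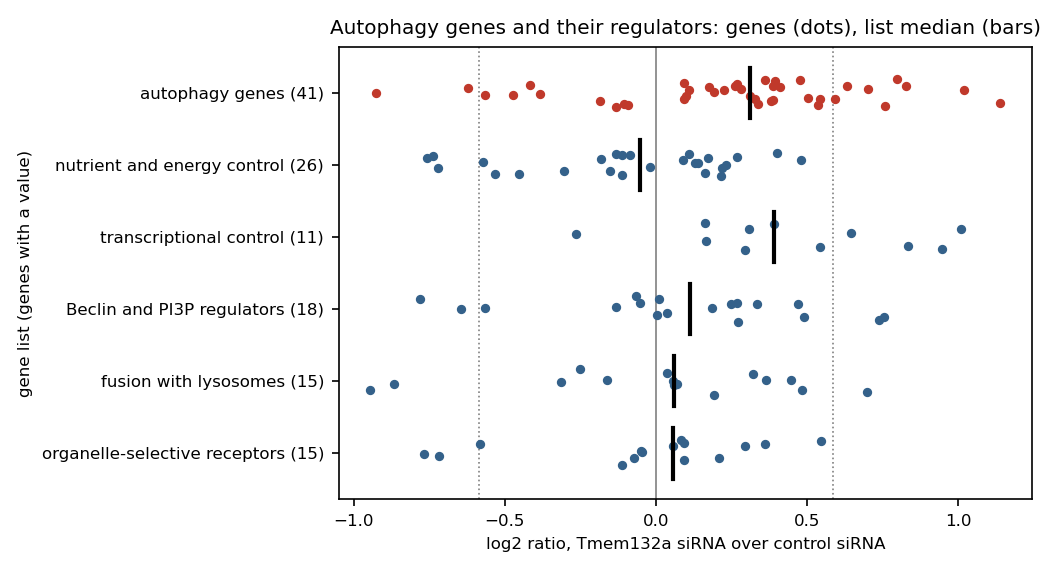
Log2 ratio, Tmem132a siRNA over control siRNA (horizontal axis), of the autophagy genes (red) and of 5 lists of regulators and partners (blue), with the number of genes with a value in brackets. Dots are genes, spread vertically for legibility, black bars are list medians, and dotted lines mark 1.5-fold. The medians are 0.31 for the autophagy genes, 0.39 for transcriptional control and between -0.05 and 0.11 for the other 4 lists.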

How the data were processed

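The deposited values are, per the series text and the processing notes of the submitters, MAS5 signal intensity per probe set, which the authors calculated from 2 arrays, 1 per group; the MAS5 version and the scaling are not given in the sources used here. The table held 45101 probe sets, of which 64 are Affymetrix controls and were not used. A factor brought the 2% trimmed means of the arrays, 497.4 on each, to equality. Probe sets with a mean signal at or above the median of all (77.2) were kept, and signals under the 20th percentile (14.5) were set to that value. Gene names came from the platform annotation (34945 probe sets had 1 symbol), and an update through the RefSeq gene table of GRCm38.p6 changed 0 symbols. A gene's value is the mean log2 ratio of its probe sets, with 1.5-fold and 2-fold as sizes and no test. Every autophagy gene is named; of each other list, all genes at least 2-fold different or, where fewer than 2 were, the 2 with the largest ratio. Promoter sequences are from RefSeq, GRCm38.p6. The set of genes (by symbol) and the lists were chosen with earlier results of these data known, and the motifs after the values were seen. Python 3.11.15, numpy 2.4.6, pandas 2.3.3, statsmodels 0.14.6 and matplotlib 3.10.9 were used, and the procedure was tested on simulated data. The number of arrays limits the precision.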

Additional observations from a re-analysis of the deposited data

How the results depend on the processing

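No paired analysis was possible because each group is 1 array. The 10 alternatives changed the scaling (none, the median ratio at 0, quantile, or loess of span 0.3), the signal filter (none, or the 75th percentile, 462.8), the floor (none, or 79.2 added as pseudocount) or the probe sets of a gene (the brightest, or none of the x, s and a kinds). The share of autophagy genes above 0, added after the data were seen, ran from 69.4% (25 of 36) to 80.8% (21 of 26). The median was 0.19 with the brightest probe set and 0.24 with the x, s and a kinds left out. The number at least 2-fold higher was 1 with the 75th percentile filter, with the brightest probe set and with x, s and a kinds left out, and 0 with the pseudocount (beside 0.642%, 2.14%, 2.17% and 0.459% of all genes); at least 2-fold lower was 1 with loess (Ulk4), with no filter (Atg16l2) and with the brightest probe set (Ulk1), beside 2.49%, 4.84% and 2.98% of all genes. At least 1.5-fold higher were 4 with the 75th percentile filter (15.4%, beside 5.71% of all genes). That number was 5 with the pseudocount (12.2%, beside 4.35%). It was also 5 with the brightest probe set (12.2%, beside 9.29%) and with x, s and a kinds left out (13.9%, beside 9.26%). These last 2 shares lay near the share of all genes. At least 1.5-fold lower was 1 gene with quantile normalization (2.44%, beside 9.1% of all genes). With the 75th percentile filter and with the pseudocount it was 0, beside 6.74% and 5.16% of all genes. The 75th percentile filter left 26 of the 41 genes, and leaving out the x, s and a kinds left 36. Becn1 changed sign with the 75th percentile filter (-0.073) and with those kinds left out (-0.20). Both settings leave out its dim x probe sets. The second also leaves out its brightest probe set, which is of the s kind (0.05), so that value rests on 1 probe set. Of 485 values of single genes under the alternatives, 460 kept their size within the probe-set SD of 0.39 or their side of 2-fold. At low signal the probe-set scatter limits what can be seen.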

Other observations

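Inside the regulator lists, smaller groups went one way; they were picked after their values were seen. All 5 measured subunits of AMP-activated kinase, the energy sensor that activates ULK1, were lower with the Tmem132a siRNA, with a median log2 ratio of -0.57. Prkaa1, its catalytic subunit, read 439.8 with the Tmem132a siRNA and 724.2 with the control siRNA (-0.72), and Prkab1, a scaffold subunit, read 1254.1 and 2092 on its brightest probe set. Prkag1 read 765.6 and 1558.5 on its brightest probe set (-1.03), while its other probe set gave 0.12. Prkaa2 did not pass the signal filter.

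The 6 measured genes of TFEB-related factors, folliculin and its partners were all above 0, with a median of 0.59. Tfeb, a factor that drives lysosome and autophagy genes, read 235.2 with the Tmem132a siRNA and 161.4 with the control siRNA (0.54), and its relatives Mitf and Tfe3 had ratios of 0.64 and 0.39. Fnip2 read 1157.4 and 650.3 on those arrays (0.83), close to Fnip1 at 0.95, while folliculin itself (Flcn) lay at 0.16. Of the 5 Ragulator subunits, which anchor mTORC1 signalling at the lysosome, 4 were below 0 and none reached 1.5-fold (0).

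A total of 20 autophagy probe sets lay below the signal filter, 13 above 0, 6 below and 1 at 0. Of all 22518 probe sets below it, 9742 were above 0, 7531 below and 5245 at 0. The autophagy probe set 1449292_at of Rb1cc1 missed the filter narrowly, with a mean of 76.2. It read 124.4 with the Tmem132a siRNA and 28.1 with the control siRNA (2.15), where the bright probe set of that gene gave 0.11. Large ratios of the other sign were those of 1440512_at of Atg4b (-1.79) and 1442207_at of Atg16l2 (-1.60). Their signals with the Tmem132a siRNA, 11.8 and 8.4, were under the floor.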
